A study of Homo sapiens with 9 samples.

Results

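Hypoxia and glycolysis genes were examined after siRNA knockdown in PC3, an androgen-independent cell line from a human prostate cancer. The targets were MELK, a protein kinase of dividing cells, and UBE2C, the E2 enzyme of the anaphase-promoting complex, which tags mitotic proteins for destruction. The set was 44 genes named by symbol: the hypoxia-inducible factor (HIF) subunits and their regulators, HIF targets, glucose uptake, the glycolytic enzymes and lactate handling. Of these, 41 genes had 74 of the 47323 probes on the array, 60 of those probes were above background on at least 3 arrays, and 39 genes were tested among 11428. SLC2A3, a glucose transporter, and EGLN3, an oxygen sensor, had probes above background on 0 of 9 arrays, and CA9, SLC16A1 and SLC16A3 were not analysed here. All cells were transfected with 50 nM siRNA and collected at 48 h, in 3 groups of 3 arrays: the AllStars negative control siRNA from Qiagen, a pool of 4 siRNAs against MELK and a pool of 4 siRNAs against UBE2C, both ON-Target pools from Thermo Scientific. The control therefore differed from both pools in supplier and design as well as in target. A difference that both knockdowns show against control cannot be told apart from that. No oxygen level is given in the labels, so none of the groups is a hypoxia treatment, and separate cultures are not stated, so the spread behind each p-value is that of the samples as deposited and may be technical.

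HIF is a transcription factor made of an oxygen-controlled alpha subunit, HIF1A or EPAS1 (HIF-2 alpha), and the constant partner ARNT. With oxygen present, the EGLN prolyl hydroxylases mark the alpha subunit, and VHL, the substrate receptor of a ubiquitin ligase, sends it for destruction; the control is therefore mostly on the protein, which these arrays do not measure. When HIF accumulates it binds short ACGTG or GCGTG cores and switches on genes for glucose uptake, glycolysis, lactate output, acid handling and mitophagy. PC3 cells, like many tumour lines, make lactate from glucose in air as well.

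The array data limited what could be said of UBE2C siRNA. On 8 of the arrays the normalized log2 signals correlated with each other at 0.981 to 0.990 over the 19511 probes kept, but UBE2C siRNA replicate 1 correlated with the others at only 0.848 to 0.877. The values given below therefore come from a limma fit of the other 8 arrays, an array selection and prior made with the results known, and the fit of all 9 arrays is given beside them. In the fit of 8 arrays the MELK transcript fell by 1.09 on the log2 scale with MELK siRNA (SE 0.089, adjusted p = 7.82e-06) and the UBE2C transcript fell by 1.31 with UBE2C siRNA (SE 0.077, adjusted p = 4.15e-08). In the fit of 9 arrays these adjusted p were 0.884 and 0.0283. Of 5 epithelial markers, EPCAM, KRT8, KRT19 and CDH1 were above background on 9 arrays and KRT18 on 8, and the prostate markers KLK3, KLK2 and FOLH1, the endothelial CDH5, VWF and KDR and the blood-cell PTPRC, CD3E and HBB on 0. Other markers of these lists were above background: TMPRSS2 (prostate) and PECAM1 (endothelium) on 9 arrays and LYZ (blood) on 3. Of 5 fibroblast markers, COL1A1 and LUM were above background on 6 arrays, COL1A2 on 2 and DCN and PDGFRB on 0. Their summed signal ran from 163 to 166 over the control arrays, from 135 to 175 with MELK siRNA and from 119 to 128 with UBE2C siRNA. This sum includes the markers at background and the offset of 16 that processing adds to each signal. Its part in the results was not tested. The summed signal of the 5 epithelial markers ran from 6964 to 12787 over the 9 arrays.

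Promoters are shown for the 2 members that passed the test and have an entry in the RefSeq table (EPAS1 and CA12), and for LDHA, the lactate dehydrogenase gene. LDHA was chosen after its values were seen because it had the most ACGTG matches, read on either strand, among the member promoters considered for printing. A CACGTG counts as 2 matches. LDHA had 5 matches with 2 CACGTG, BHLHE40 had 4 with 1 and PGK1 had 3 with 0. As separate sites, LDHA therefore did not exceed BHLHE40 or PGK1. Each runs 5′ to 3′ on the gene's strand from 250 bases before the annotated start to 50 after it, in GRCh38.p14. Capitals mark ACGTG and GCGTG cores read on either strand, and where both strands match, as in CACGTG, the cores overlap. EPAS1 lies at chr2:46297157-46297456 on the plus strand, CA12 at chr15:63381797-63382096 on the minus strand and LDHA at chr11:18394313-18394612 on the plus strand.
EPAS1: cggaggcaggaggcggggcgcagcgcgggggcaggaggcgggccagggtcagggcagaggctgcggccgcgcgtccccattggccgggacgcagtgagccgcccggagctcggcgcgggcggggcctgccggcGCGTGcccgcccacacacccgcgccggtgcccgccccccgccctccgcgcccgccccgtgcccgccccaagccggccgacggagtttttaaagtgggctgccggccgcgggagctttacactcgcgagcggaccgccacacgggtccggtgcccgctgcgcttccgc
CA12: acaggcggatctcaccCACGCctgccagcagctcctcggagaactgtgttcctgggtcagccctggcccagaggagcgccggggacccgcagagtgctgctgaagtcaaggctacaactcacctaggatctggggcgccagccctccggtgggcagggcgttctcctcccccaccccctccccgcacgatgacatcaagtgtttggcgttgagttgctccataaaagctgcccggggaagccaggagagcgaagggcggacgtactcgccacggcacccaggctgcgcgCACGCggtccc
LDHA: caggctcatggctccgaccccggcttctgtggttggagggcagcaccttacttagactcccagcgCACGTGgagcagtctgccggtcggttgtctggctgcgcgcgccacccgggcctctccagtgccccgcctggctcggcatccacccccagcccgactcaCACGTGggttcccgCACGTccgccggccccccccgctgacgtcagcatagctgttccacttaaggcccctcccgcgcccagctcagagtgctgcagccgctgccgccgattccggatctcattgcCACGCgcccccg
The EPAS1 window holds 1 core, a GCGTG that begins at -117, and the CA12 window holds GCGTG on the opposite strand at -234 and at 40, with no ACGTG in either. The LDHA window holds CACGTG at -185 and -87, a further ACGTG on the opposite strand at -73 and a GCGTG on the opposite strand at 39. ACGTG was found in 38.8% of the 67 promoters listed for 37 members, against 21.4% of the 35116 promoters in the table, and GCGTG in 43.3% against 36.5%. The palindrome CACGTG, which contains ACGTG and is also the E-box bound by MYC and MondoA, was in 14.9% against 7.26%. Member promoters were also richer in G and C, with a median of 68.7% against 58.7% over the table, and the members were named as HIF targets in the first place, so these shares are a description of letters and not of binding.

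MELK siRNA lowered 4 of the 39 members (EPAS1, VHL, CA12 and NDRG1) and raised none, by limma with Benjamini-Hochberg adjustment over all 11428 genes. Over all genes tested, 2.29% were called higher and 3.22% lower, so the members' 10.3% lower stood above the background share and their 0% higher a little below it. None of the 4 is a glycolytic enzyme. They are the HIF-2 alpha subunit, the ubiquitin ligase component that destroys HIF alpha, an extracellular carbonic anhydrase and a stress-response gene of the cell membrane and cytoplasm. The members' log2 fold changes had a median of -0.10, against 0.00 over all genes, and 31 of 39 were negative. With arrays scaled to their median in place of quantiles, the members' median was -0.02 against 0.04 over all genes, 22 of 39 were negative, and the calls split into 2 higher (HIF1A and LDHB) and 3 lower. Across all genes the same scaling turned the split from 262 higher and 368 lower to 749 higher and 246 lower. The size of the set's lean to lower values therefore depended on the scaling. Under median scaling the members' median was still below that of all genes. With cyclic loess the members' median was -0.13 against -0.01 over all genes, and 31 of 39 were negative. In bulk RNA, a lower signal from fewer expressing cells and from less RNA per cell cannot be told apart.

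The calls also depended on the fit. With all 9 arrays and a prior without trend, 0 members and 0% of all genes were called for MELK siRNA. At an unadjusted p under 0.05 were 2 of the 39 members (616 of all 11428 genes), against 8 members (2521 of all genes) in the fit of 8 arrays. In neither fit was the members' share larger than that of all genes. With 8 arrays and a prior without trend 0 members were called as well, and with all 9 arrays weighted by quality 2 were called lower (VHL and NDRG1). When each of the 8 arrays was left out in turn, VHL and NDRG1 were called every time and EPAS1 never. CA12 was called when control siRNA replicate 1 or MELK siRNA replicate 1 was left out, and lost when any of the other 6 was. HIF1A became a higher call when MELK siRNA replicate 3 was left out.

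**Figure D1:**
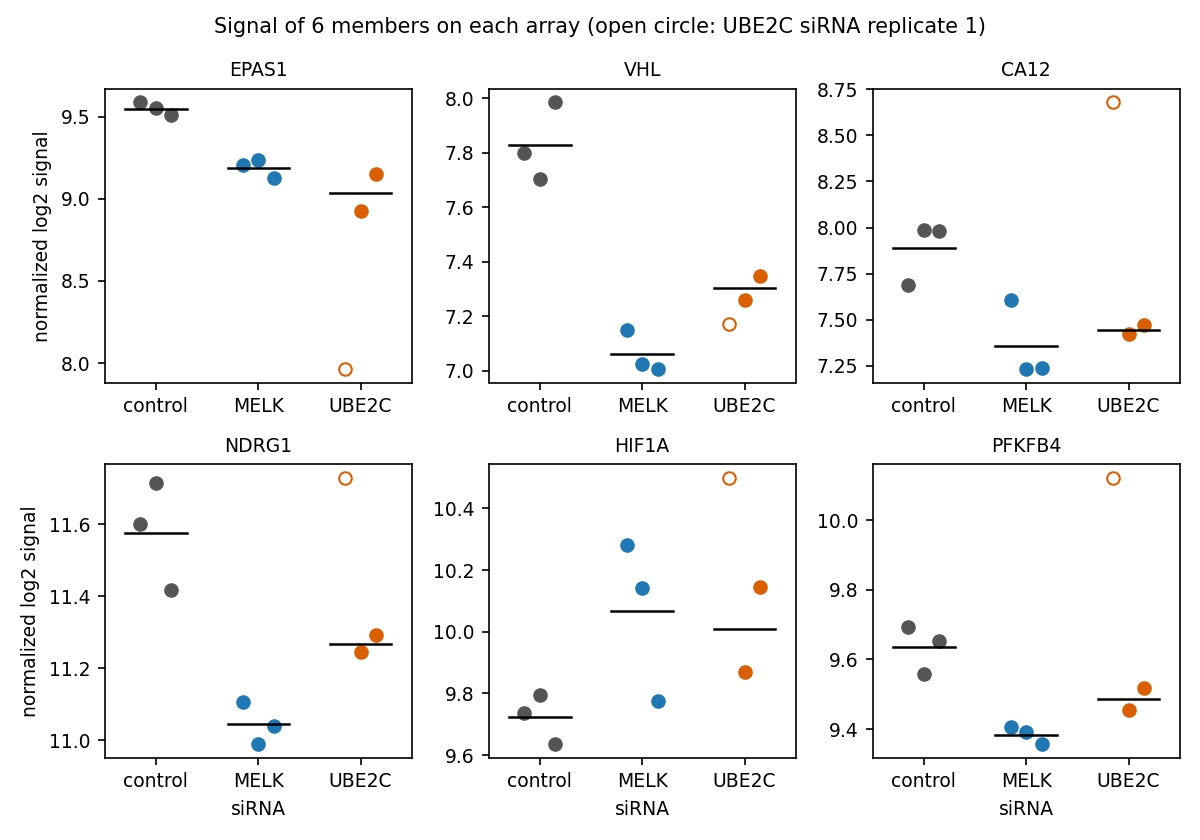
Normalized log2 signal (y axis) on each of the 9 arrays for 6 members, by siRNA group, where points are arrays in the order of replicates 1 to 3, the line is the mean over the arrays in the fit and the open circle is UBE2C siRNA replicate 1, left out of the fit and of the mean. For EPAS1, VHL, CA12 and NDRG1 all MELK siRNA points lie below all control points; the y axes differ between genes and do not start at 0.

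Among the HIF subunits, EPAS1 fell in both knockdowns. Its normalized log2 signal was 9.59, 9.55 and 9.51 on the control arrays, 9.21, 9.24 and 9.12 with MELK siRNA and 8.93 and 9.15 with UBE2C siRNA replicates 2 and 3, with 7.96 on replicate 1. All knockdown arrays lay below all control arrays. Against a control mean of 9.55 ± 0.04 (SD, n = 3), MELK siRNA gave 9.19 ± 0.06 (SD, n = 3), a log2 fold change of -0.36 (SE 0.10, adjusted p = 0.0451) that left 78.0% of the control signal. UBE2C siRNA gave -0.51 (SE 0.112, adjusted p = 0.0202), or 70.2% of control, and EPAS1 was the only member called in that comparison. The MELK siRNA call was close to the threshold: leaving out any one of the 8 arrays gave an adjusted p of 0.0579 to 0.137. With 9 arrays the UBE2C siRNA value was -0.87 (adjusted p = 0.410) and the MELK siRNA value had an adjusted p of 0.987. The 2 comparisons share the control arrays, so their EPAS1 values are not independent of each other.

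HIF1A, the other alpha subunit, gave values that depended on the probe. The tested probe read 9.74, 9.79 and 9.63 on the control arrays, 10.28, 10.14 and 9.77 with MELK siRNA, and 10.50, 9.87 and 10.15 with UBE2C siRNA replicates 1 to 3. MELK siRNA replicate 3 overlapped the controls, whereas the UBE2C siRNA arrays all lay above them. The log2 fold changes were 0.34 with MELK siRNA (SE 0.121, adjusted p = 0.102) and 0.29 with UBE2C siRNA (SE 0.135, adjusted p = 0.218), neither past the threshold. Among the alternatives run it was called with MELK siRNA with median scaling (0.42, adjusted p = 0.0387) and without MELK siRNA replicate 3, the array that overlapped the controls (0.49, adjusted p = 0.0407). The other HIF1A probes, which the annotation ties to a different RefSeq transcript, gave -0.16 and -0.05 with MELK siRNA and 0.50 and 0.59 with UBE2C siRNA, again without a call. The first of them read 7.60, 7.13 and 8.55 with control siRNA and 6.75, 7.77 and 8.26 with MELK siRNA. The second read 6.45, 6.23 and 6.90 with control siRNA and 5.97, 6.53 and 6.93 with MELK siRNA. On both, only MELK siRNA replicate 1 lay below all controls, so the negative sign rested on that array. On UBE2C siRNA replicate 1 those probes read 4.19 and 4.96, near background, where replicates 2 and 3 averaged 8.26 and 7.11. ARNT, the shared partner, was near background: its fold changes were -0.10 and -0.21 with 95% intervals from -0.84 to 0.64 and from -1.03 to 0.62. It was not above background on control siRNA replicates 1 and 3, MELK siRNA replicate 3 or UBE2C siRNA replicates 2 and 3, so no direction can be given.

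VHL, which recognises hydroxylated HIF alpha, had the largest change among the 39 members with MELK siRNA. Its tested probe read 7.80, 7.70 and 7.98 on the control arrays, 7.15, 7.02 and 7.01 with MELK siRNA and 7.17, 7.26 and 7.35 with UBE2C siRNA replicates 1 to 3. Every knockdown array, UBE2C siRNA replicate 1 included, lay below every control. MELK siRNA lowered the mean from 7.83 ± 0.14 (SD, n = 3) to 7.06 ± 0.08 (SD, n = 3), a log2 fold change of -0.77 (SE 0.136, adjusted p = 0.00626) that left 58.7% of control. With UBE2C siRNA the value was -0.52 (SE 0.152), just short of the threshold at an adjusted p of 0.0568. The other probes did not all move alike. A second probe for the same annotated transcript gave -0.53 (adjusted p = 0.210) and -0.98 (adjusted p = 0.0553) in the fit of all probes, and the remaining one, annotated to another transcript, gave -0.08 and 0.11. That last probe was near background, above it on 6 of 9 arrays, so no direction can be given for it. When the probes of a gene were averaged the VHL value with MELK siRNA was -0.46 and was no longer called (adjusted p = 0.123). The oxygen-sensing hydroxylases were not called: EGLN1 gave 0.04 and 0.00, and EGLN2 gave -0.17 and -0.23, with MELK and UBE2C siRNA.

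Of the 12 tested HIF targets outside glycolysis, 2 fell with MELK siRNA and 0 passed the test with UBE2C siRNA. Over all genes, 3.22% and 2.78% were called lower. At an unadjusted p under 0.05 in limma were 2 of the 12 in each comparison (2521 and 2594 of all 11428 genes). NDRG1, a hypoxia- and stress-induced gene linked to growth arrest and differentiation, read 11.60, 11.71 and 11.42 on the control arrays and 11.11, 10.99 and 11.04 with MELK siRNA. The groups did not overlap, and the log2 fold change was -0.53 (SE 0.087, adjusted p = 0.00376), or 69.2% of control. With UBE2C siRNA NDRG1 read 11.24 and 11.29 on replicates 2 and 3, below all controls, but 11.73 on replicate 1, above all of them. Its value was -0.31 (SE 0.097, adjusted p = 0.0738) without that array and -0.15 (adjusted p = 0.680) with it. NDRG1 has 1 kept probe, so no second probe could be set against it.

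CA12, a carbonic anhydrase of the outer cell membrane that takes part in acid handling, read 7.69, 7.99 and 7.98 with control siRNA and 7.61, 7.23 and 7.24 with MELK siRNA. The highest MELK siRNA array lay just below the lowest control, so the groups were separate but close. The log2 fold change was -0.53 (SE 0.145, adjusted p = 0.0434), or 69.4% of control. A second CA12 probe for the same annotated transcript gave -0.01 with MELK siRNA, and the mean of both gave -0.27 (adjusted p = 0.275), so the call rested on the brighter probe. UBE2C siRNA replicates 2 and 3 read 7.42 and 7.47 and replicate 1 read 8.68; the value was -0.44 (SE 0.162, adjusted p = 0.119) without replicate 1 and -0.03 with it.

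The other 10 of these targets were not called in either knockdown, with fold changes between -0.27 and 0.23 on their tested probes. ANKRD37, a small ankyrin-repeat gene used as a marker of HIF-1 activity, read 7.53, 7.42 and 7.41 with control siRNA and 7.69, 7.76 and 7.56 with MELK siRNA. Its MELK siRNA arrays were all above the controls, at 0.21 (adjusted p = 0.374), the opposite side from NDRG1 and CA12. The mitophagy receptor BNIP3 was likewise positive in both knockdowns (0.14 and 0.17), whereas its relative BNIP3L gave -0.04 and 0.19 on its tested probe. The other kept BNIP3L probe gave 0.34 and 0.13, positive in both, so BNIP3L did not clearly differ from BNIP3. The vasodilator peptide ADM (-0.11 and -0.07), the lipase inhibitor ANGPTL4 (-0.20 and -0.24), the histone demethylase KDM3A (-0.27 and -0.17), the transcriptional repressor BHLHE40 (-0.11 and -0.10) and the secreted glycoprotein STC1 (-0.25 and -0.17) were all negative in both. MXI1, a MYC antagonist near background on these arrays, and ERO1A, the oxidase of disulfide formation, had opposite signs in the 2 comparisons. STC1 on UBE2C siRNA replicates 2 and 3 read 6.49 and 6.54, below the controls at 6.78, 6.58 and 6.70, but 7.16 on replicate 1.

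**Figure D2:**
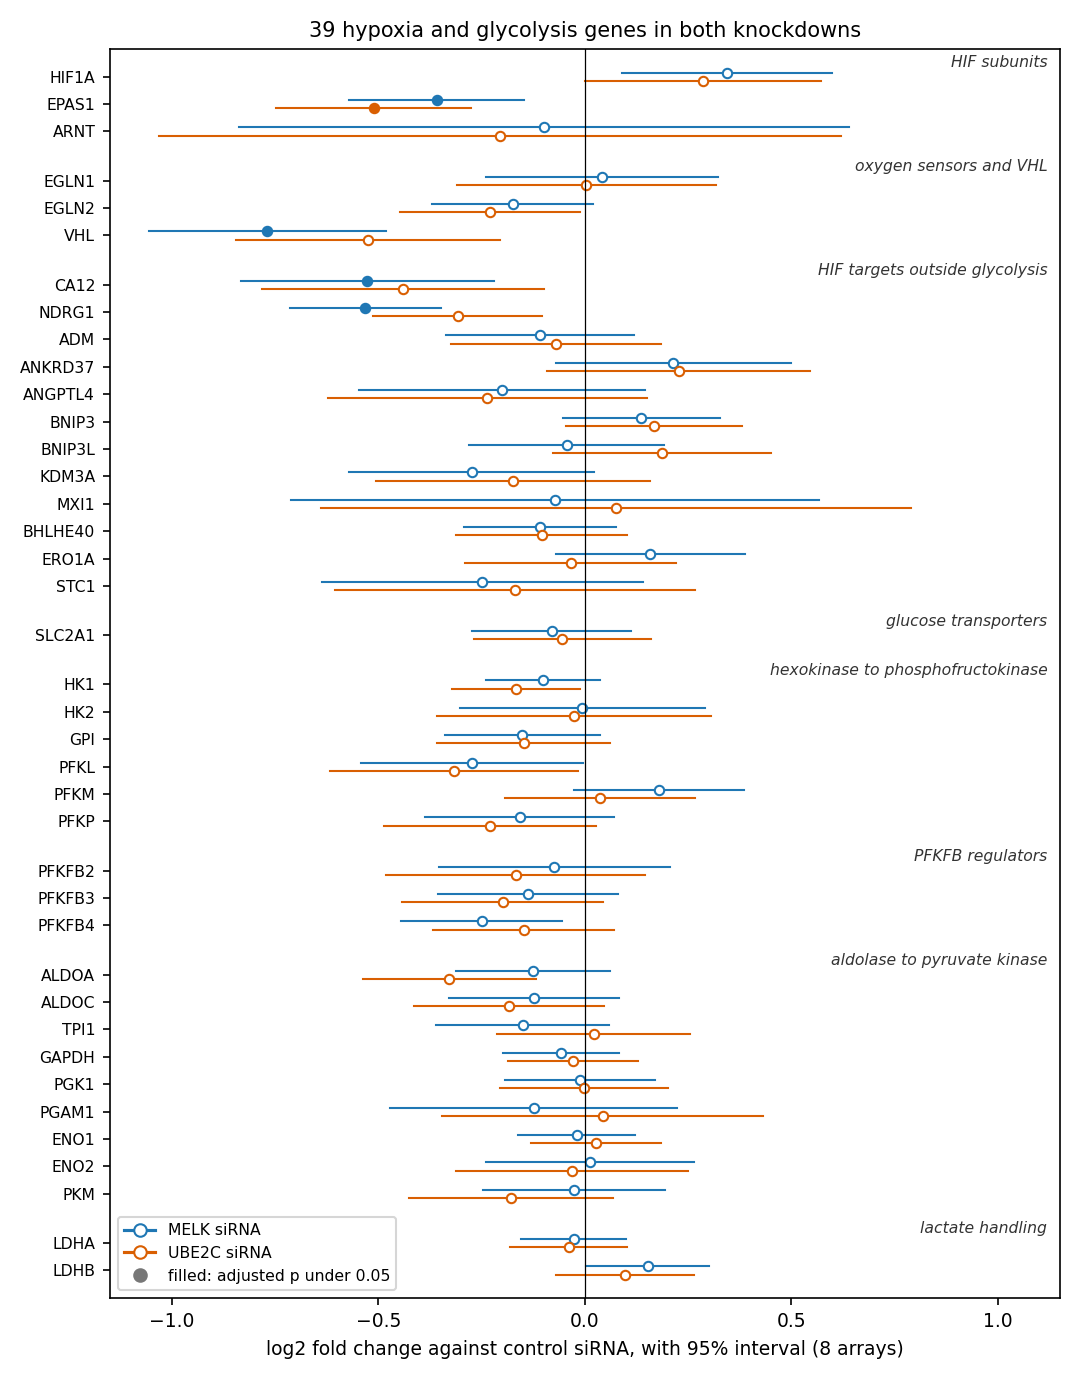
Log2 fold change against control siRNA (x axis) with its 95% interval for the 39 tested members in order of their role (y axis), from the fit of 8 arrays, with MELK siRNA in blue, UBE2C siRNA in orange and filled points for an adjusted p under 0.05. Filled points occur only at EPAS1, VHL, CA12 and NDRG1, and the enzymes from aldolase to lactate dehydrogenase lie between -0.18 and 0.15, with the exception of ALDOA with UBE2C siRNA at -0.33.

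Glucose entry and the first steps of glycolysis had no calls in either knockdown. SLC2A1 (GLUT1), the main glucose transporter of many tumours, read 9.88, 9.98 and 9.86 with control siRNA and 9.82, 9.84 and 9.82 with MELK siRNA, just below the controls, at -0.08 with a 95% interval from -0.27 to 0.11. With UBE2C siRNA it gave -0.05 and overlapped the controls. The hexokinase HK1 read 13.31, 13.34 and 13.37 with control siRNA, 13.30, 13.19 and 13.23 with MELK siRNA and 13.09 and 13.25 with UBE2C siRNA replicates 2 and 3. These arrays were lower than the controls by 0.10 and 0.17, without a call, and replicate 1 at 13.37 was not lower. HK2, the hexokinase induced by HIF, gave -0.01 and -0.03 on its tested probe and 0.14 and 0.22 on its other kept probe, none called. GPI, the isomerase of the next step, gave -0.15 in each.

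The 3 phosphofructokinase genes, whose enzyme commits glucose to glycolysis, did not share a direction. PFKM, named for muscle, read 9.65, 9.39 and 9.54 with control siRNA and 9.76, 9.70 and 9.65 with MELK siRNA, a value of 0.18 (adjusted p = 0.295) with the MELK siRNA arrays just above the controls. PFKL, named for liver, read 9.65, 9.31 and 9.05 with control siRNA, 9.07, 9.03 and 9.10 with MELK siRNA and 9.04 and 9.01 with UBE2C siRNA replicates 2 and 3. The controls of PFKL were more spread than the knockdown arrays, and its fold changes of -0.27 and -0.32 were not called (adjusted p = 0.218 and 0.194). When control siRNA replicate 3, the lowest control, was left out, PFKL passed the threshold with UBE2C siRNA at -0.46 (adjusted p = 0.0422), together with ALDOA and NDRG1. PFKP, named for platelets, gave -0.16 and -0.23.

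PFKFB enzymes make and remove a fructose bisphosphate that activates phosphofructokinase. PFKFB4 read 9.69, 9.56 and 9.65 with control siRNA, 9.41, 9.39 and 9.36 with MELK siRNA and 9.46 and 9.52 with UBE2C siRNA replicates 2 and 3. It was below all controls on the 5 knockdown arrays of the fit and above them on UBE2C siRNA replicate 1 at 10.12. The value with MELK siRNA was -0.25 (SE 0.093) with an adjusted p of 0.120, and with UBE2C siRNA -0.15 (adjusted p = 0.425). PFKFB3, the form most tied to hypoxia, gave -0.14 and -0.20 with overlapping arrays, and PFKFB2 gave -0.07 and -0.17. For PFKFB2 the UBE2C siRNA arrays read 7.39 and 7.48 against 7.67, 7.63 and 7.52 with control siRNA, and replicate 1 read 4.39.

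The 9 genes from aldolase to pyruvate kinase had 0 calls in limma in either knockdown, with 0 and 1 at an unadjusted p under 0.05 (2521 and 2594 of all 11428 genes). Their median log2 fold change was -0.06 with MELK siRNA and -0.03 with UBE2C siRNA. GAPDH, often used as a loading control, gave -0.06 (95% interval -0.20 to 0.08) and -0.03 (-0.19 to 0.13), and ENO1 gave -0.02 (-0.16 to 0.12) and 0.03 (-0.13 to 0.18). PGK1, the first ATP-making step, gave -0.01 and 0.00 on its tested probe. A second PGK1 probe gave 0.17 and 0.28 (adjusted p = 0.207 and 0.0842 among all probes in limma). On that probe all knockdown arrays of the fit lay above the controls. The interval of PGAM1, whose control arrays ranged from 11.68 to 12.32, was wider, from -0.47 to 0.22 with MELK siRNA. The member outside this pattern was ALDOA, aldolase A, with 13.16, 13.00 and 12.74 on the control arrays and 12.66 and 12.62 on UBE2C siRNA replicates 2 and 3, and 11.90 on replicate 1. All were below the controls, at -0.33 (SE 0.099, adjusted p = 0.0652), whereas MELK siRNA gave -0.13 with overlapping arrays at 12.76, 12.84 and 12.93. A second ALDOA probe gave -0.63 with MELK siRNA and -0.15 with UBE2C siRNA, neither called. On it MELK siRNA replicates 1 to 3 read 11.34, 12.35 and 12.70, against 12.83, 12.36 and 13.10 with control siRNA. The size of the MELK siRNA value thus leaned on replicate 1. ALDOC, TPI1, ENO2 and PKM ranged from -0.18 to 0.02 over both knockdowns.

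Lactate dehydrogenase A, which turns pyruvate into lactate, did not differ detectably. LDHA read 14.29, 14.23 and 14.15 with control siRNA, 14.20, 14.22 and 14.16 with MELK siRNA and 14.06, 14.11 and 14.25 with UBE2C siRNA replicates 1 to 3. The groups overlapped, with fold changes of -0.03 (95% interval -0.15 to 0.10) and -0.04 (-0.18 to 0.10). LDHA, whose promoter is printed above, was not called, and a link between its cores and its response was not tested. A second probe gave 0.04 and 0.02, and the remaining one gave 0.33 and 0.66 (adjusted p = 0.302 and 0.0736 among all probes). LDHB, the form that favours the reverse reaction, read 12.56, 12.62 and 12.56 with control siRNA and 12.79, 12.71 and 12.70 with MELK siRNA, all above the controls. Its value was 0.15 (SE 0.071, adjusted p = 0.218), past the threshold only with median scaling among the alternatives run, at 0.27 (adjusted p = 0.0409).

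UBE2C siRNA gave 1 call among the 39 members, the fall of EPAS1, and 0 higher. Over all genes 1.68% were called higher and 2.78% lower, so 1 of 39 is no more than the background. The members' median was -0.10 against -0.02 over all genes, and 28 of 39 were negative; with median scaling the median was -0.03 against 0.03 and 22 were negative. With 9 arrays 0 members and 0.00875% of all genes (the UBE2C gene itself) were called, 4 members had an unadjusted p under 0.05 (1274 of all 11428 genes) and 23 were negative, and with 8 arrays and a prior without trend 0 members were called. The count was 0 without control siRNA replicate 2 or UBE2C siRNA replicate 2 or 3, 2 without MELK siRNA replicate 1, and 4 without control siRNA replicate 3.

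Members whose arrays did not overlap the controls lay more often below them than above. With MELK siRNA 3 members were above all controls and 7 below, or 7.69% and 17.9% of the 39, against 13.8% and 11.9% of all genes. With UBE2C siRNA on 8 arrays 1 member was above and 10 below, or 2.56% and 25.6%, against 17.3% and 21.6%. With replicate 1 included, 1 was above and 5 below, or 2.56% and 12.8%, against 11.4% and 7.79%. In each case the share above the controls was smaller than for all genes and the share below larger. With UBE2C siRNA on 8 arrays the share below was close to that of all genes. All these differences rest on few members and were not tested. These counts are of quantile-normalized values, and the lean to negative values shrank with median scaling, as given above.

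Set against each other, the knockdowns gave 0 calls among the members by limma in either fit, with 1 member (NDRG1) and 0 members at an unadjusted p under 0.05 in the fits of 8 and 9 arrays (581 and 336 of all 11428 genes). Of all genes 0.0175% were called with 8 arrays, namely MELK and UBE2C, and 0.00875% with 9. Without overlap on the tested probes, 3 members were higher with MELK siRNA (ALDOA, ERO1A and PFKM) and 4 lower (VHL, BNIP3L, NDRG1 and PFKFB4). These are 7.69% and 10.3% of the members, against 14.2% and 9.22% of all genes. With 9 arrays there were 1 and 3, or 2.56% and 7.69%, against 4.46% and 4.71%. VHL differed by -0.24 (95% interval -0.56 to 0.08) and NDRG1 by -0.22 (-0.43 to -0.02), both adjusted p = 0.937. On their other kept probes VHL gave 0.45 and -0.18 and ALDOA gave -0.49, none called. BNIP3L read 9.57, 9.84 and 9.78 with MELK siRNA and 9.84 and 10.08 with UBE2C siRNA replicates 2 and 3, but 7.39 on replicate 1. Its other kept probe separated the opposite way, with 7.65, 7.87 and 7.75 against 7.47 and 7.63, and 8.72 on replicate 1. ERO1A read 9.85, 9.69 and 9.79 against 9.69 and 9.48, with 10.48 on replicate 1. A difference between the knockdowns was therefore not shown for any member, and EPAS1, called in both, gave 0.15 (-0.08 to 0.39).

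When every kept probe was tested in place of 1 per gene, 2 member probes fell with MELK siRNA (NDRG1 and VHL) and 1 with UBE2C siRNA (EPAS1), against 1.69% and 1.18% of the 19511 kept probes called lower. For 16 members more than 1 probe was kept, which gave 21 further probes. Of these, 12 had the sign of the tested probe with MELK siRNA and 15 with UBE2C siRNA. The median difference between a further probe and the tested one was 0.22 and 0.18 on the log2 scale, where the tested members' own fold changes had a median size of 0.14 and 0.17 (0.17 and 0.19 over all genes). With replicate 1 included it was 0.88 for UBE2C siRNA.

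**Figure D3:**
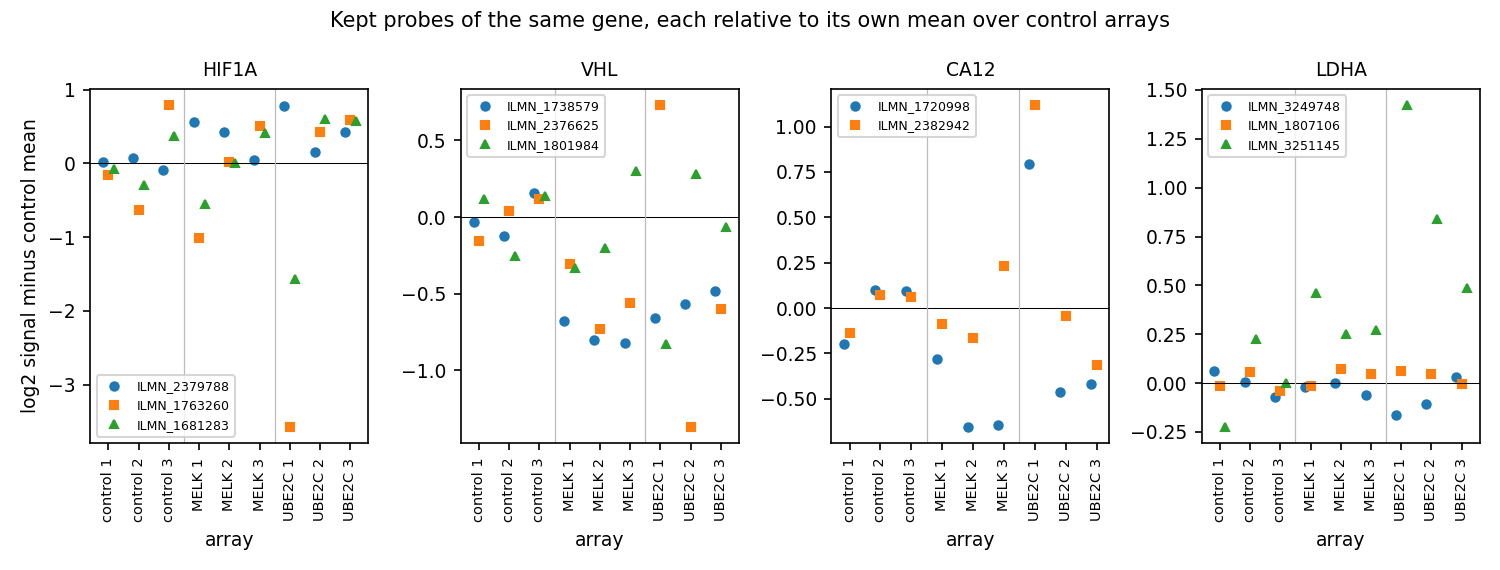
Log2 signal of each kept probe minus its own mean over the control arrays (y axis) on each of the 9 arrays (x axis) for HIF1A, VHL, CA12 and LDHA, where each symbol is a probe and grey lines separate the siRNA groups. The first 2 VHL probes in the legend are below 0 on all MELK siRNA arrays while the third is not, the second CA12 probe lies above 0 on MELK siRNA replicate 3, and 2 HIF1A probes drop on UBE2C siRNA replicate 1.

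The glycolysis probes were among those that made UBE2C siRNA replicate 1 stand apart. On that array 12 of the 60 kept member probes (20%) lay more than 2 log2 units below the mean of replicates 2 and 3, against 8.62% of all kept probes, and 19 (31.7%) lay more than 0.5 above, against 37.4%. Kept probes near background, such as those of ARNT and MXI1, had no room for such a drop. The shares were not matched for signal, so an excess among the members beyond their brightness was not tested. The 12 probes belong to PGAM1, ALDOA, TPI1, PKM, HK2, HIF1A, PGK1, PFKFB2 and BNIP3L. PGAM1 read 4.17 where replicates 2 and 3 averaged 12.05, and the other 8 arrays lay between 11.58 and 12.32. For several genes one probe fell and another did not: TPI1 read 7.58 against 13.34 on one probe and 12.68 against 12.92 on the other, and PGK1 read 9.56 against 13.24 and 12.00 against 12.25. HK2 read 4.52 against 9.61 on its tested probe. The dropped member probes varied more between the control arrays too, with a median SD of 0.297 against 0.145 for the rest (0.220 against 0.178 over all kept probes). What separates the probes that dropped from those that did not was not tested.

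**Figure D4:**
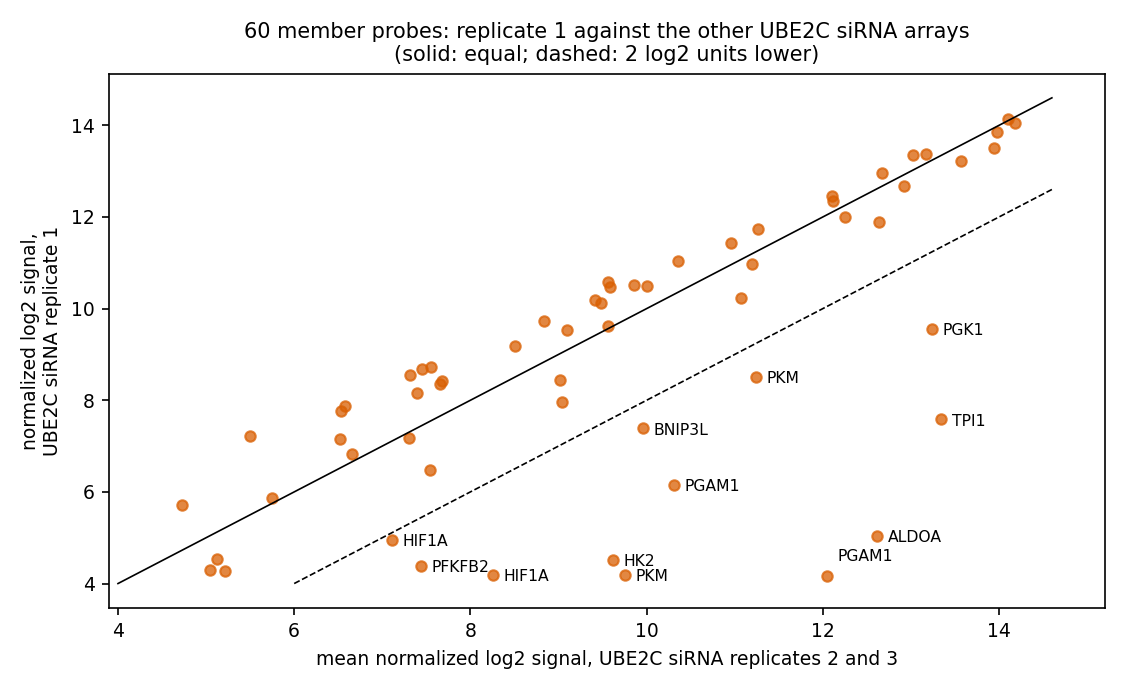
Normalized log2 signal on UBE2C siRNA replicate 1 (y axis) against the mean of UBE2C siRNA replicates 2 and 3 (x axis) for the 60 kept member probes, where each point is a probe, the solid line marks equal values and the dashed line 2 log2 units lower. The 12 labelled probes lie below the dashed line, the lowest at 4.17 for PGAM1.

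Other genes of the pathway were read from lists chosen in the same way as the members. Of 14 tested genes of the HIF machinery outside the members, MELK siRNA raised 1 and lowered 1, or 7.14% each, against 2.29% higher and 3.22% lower of all genes. RBX1, the RING subunit of the VHL ubiquitin ligase and of other cullin ligases, rose by 0.32 (SE 0.080, adjusted p = 0.0307) and CREBBP, a HIF co-activator, fell by 0.53 (SE 0.126, adjusted p = 0.0231). UBE2C siRNA raised RBX1 by 0.38 (SE 0.089, adjusted p = 0.0251), and no other gene of that list was called. On their tested probes VHL and RBX1, subunits of the same ligase, had opposite signs in both knockdowns, with VHL called in that of MELK only. The VHL probe annotated to another transcript gave -0.08 with MELK siRNA and 0.11 with UBE2C siRNA. It was near background, so its sign cannot be set against that of RBX1.

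Of 32 other HIF targets, MELK siRNA lowered IGFBP3, an insulin-like growth factor binding protein, by 0.39 (-0.39, SE 0.097, adjusted p = 0.0299) and PLOD1, a collagen lysyl hydroxylase, by 0.30 (-0.30, SE 0.082, adjusted p = 0.0421). UBE2C siRNA raised TMEM45A by 0.47 (adjusted p = 0.0437) and lowered the cell-cycle gene CCND1 (-0.35, adjusted p = 0.0174). With MELK siRNA 6.25% of this list was called lower and 0 higher, and with UBE2C siRNA 3.12% each way, and its medians were -0.02 and 0.07, against 0.00 and -0.02 over all genes. Of 17 genes of the pentose phosphate and glycogen branches, MELK siRNA raised RPE, an epimerase of the pentose phosphate pathway, by 0.39 (adjusted p = 0.0438) and PGM2, a phosphopentomutase, by 0.51 (adjusted p = 0.0315), and UBE2C siRNA raised RPE by 0.50 (adjusted p = 0.0268). These are 11.8% and 5.88% called higher, with 0 lower, against 2.29% and 1.68% of all genes, while the list's medians were -0.04 and -0.03. Among 17 other isozymes and sugar phosphatases MELK siRNA raised MINPP1, a phosphatase of inositol phosphates and bisphosphoglycerate, by 0.76 (adjusted p = 0.00829) and TIGAR, a p53-induced fructose bisphosphatase, by 0.45 (adjusted p = 0.0462), which is 11.8% of the list, and UBE2C siRNA called 0, with 5 at an unadjusted p under 0.05. Of 5 genes of the glucose-responsive MondoA and MYC axis 0 were called in either knockdown, with 3 and 1 at an unadjusted p under 0.05. Over all 11428 genes, 2521 with MELK siRNA and 2594 with UBE2C siRNA were at an unadjusted p under 0.05. With 9 arrays 0 genes of these lists were called in either comparison.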

How the data were processed

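Total RNA (250 ng per array) of 9 PC3 samples was made into biotin-labelled cRNA and hybridized to Illumina bead arrays, per the labels' protocols. The deposited intensity values are bead signals per probe on a linear scale, without background subtraction or scaling, as their values show, and each has a deposited detection p-value, per the file headers. The authors' deposited log2 values, used as an alternative, have the same quantiles on every array; lumi is named in the submitters' processing notes. Intensities were background-corrected and quantile-normalized with neqc (limma 3.58.1, R 4.3.3, offset 16). A probe counted as above background with detection p under 0.01 and a signal over the median of probes with p above 0.9, and was kept on at least 3 arrays. Between 16559 and 18661 probes passed per array; the number of arrays limits the precision. Genes came from the platform annotation, checked against RefSeq of GRCh38.p14, and each gene was tested on its probe with the highest mean. Probes of high and low signal were not compared with each other as levels.

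Group means were fitted to 8 arrays (lmFit, eBayes with trend and robust), and p-values were adjusted by Benjamini-Hochberg over the 11428 genes, with calls at an adjusted p under 0.05; the 9-array fit used a prior without trend. All limma p-values are two-sided. The members, lists and fit were chosen with earlier results of these data known. Values on every array are given for called members, for members whose probes disagree where 1 is called, and for up to 8 further members per comparison whose arrays do not overlap between groups; outside the members, MELK, UBE2C and up to 4 called genes per list were named. HIF1A, EPAS1, SLC2A1, PFKFB3 and LDHA were described whatever their values. No label says that equal replicate numbers pair the samples, so no block was used. Correlations of deviations from the group means ran from -0.065 to 0.179 for equal numbers and from -0.244 to 0.227 for unequal ones. They cannot settle pairing, because the deviations of so few arrays cancel within a group. No slide or scan date was used, so batches could not be tested.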

Additional observations from a re-analysis of the deposited data

How the results depend on the processing

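Of 23 alternatives to the fit, 22 were planned and 1, a one-sided detection p for the background, was chosen after seeing the data. The member count with MELK siRNA (4) was 0 with all 9 arrays under either prior and with 8 arrays and no trend, and 2 with array weights, detection p alone, no filter, the mean of probes or only 2 groups in the fit; leaving out 1 array gave 2 to 3, of which 1 was HIF1A, higher, without MELK siRNA replicate 3. With UBE2C siRNA (1) it was 0 with all 9 arrays under either prior, with 8 arrays and no trend and with detection p alone, and 2 with array weights, the deposited log2 values, no background correction or probes above background on all 8 arrays; leaving out 1 array gave 0 to 4. Against each other the knockdowns gave 0 members under every alternative run. No called member changed sign under these alternatives: the MELK siRNA calls held in 20 (NDRG1), 19 (VHL), 9 (CA12) and 7 (EPAS1) of 23, and the EPAS1 call with UBE2C siRNA in 16. With the replicate block, which no label supports as a pairing, the member counts were 4, 1 and 0, and all genes called were 731 and 337 in place of 630 and 510. Across all genes, calls with MELK siRNA ranged from 0 (all 9 arrays), 1 (8 arrays without trend), 126 (array weights), 175 (detection p alone), 282 (no filter) and 356 (2 groups) to 995 (median scaling), and from 78 to 692 with 1 array left out. With UBE2C siRNA they were 1 with all 9 arrays or without trend, 4 with detection p alone and 211 with no filter, 605 with median scaling (403 higher and 202 lower, against 192 and 318), and 2 to 755 with 1 array left out. Between the knockdowns 2 genes were called, 1 with 9 arrays, no trend or the mean of probes and 6 with array weights. Why calls were lost without the trended prior was not tested. Outside the members, the called genes kept their signs, but IGFBP3, PLOD1, TIGAR and TMEM45A held in at most 9 of 23. Signals near background, as for ARNT and MXI1, leave wide intervals.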
